A study of Mus musculus with 12 samples.

Results

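The genes described here are 9 serpin genes of mouse liver: the alpha-1 antitrypsin copies *Serpina1a*, *Serpina1b*, *Serpina1c*, *Serpina1d* and *Serpina1e*, the antichymotrypsin-like genes *Serpina3k*, *Serpina3m* and *Serpina3n*, and *Serpina12*, which encodes vaspin. They were taken by gene symbol from a table of 24532 genes, and all 9 passed the filter on low counts. Values of the 5 *Serpina1* genes and of the 3 *Serpina3* genes were also summed, because near-identical genes share reads.

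RNA-seq was performed on 12 livers of male C57BL/6 mice, with 3 livers in each of 4 groups. WT mice carried *Ahr* alleles flanked by loxP sites without Cre, and *Ahr* HKO mice carried the same floxed alleles with Cre under the albumin promoter, which is active in hepatocytes, so that other liver cells keep the gene. Mice entered the feeding at 10 to 12 weeks of age and received for 5 weeks either an isocaloric control liquid diet (WT+con, *Ahr* HKO+con) or the Lieber-DeCarli diet with ethanol at 5% of the volume and 36% of the calories (WT+EtOH, *Ahr* HKO+EtOH). The aryl hydrocarbon receptor, encoded by *Ahr*, is a ligand-activated transcription factor, and the comparisons ask how ethanol and the hepatocyte deletion, alone and together, changed the RNA of the liver.

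Serpins are protease inhibitors that present a flexible reactive centre loop as bait. The protease cuts the loop and is trapped in a covalent complex, so the residues of the loop decide which protease is caught. Alpha-1 antitrypsin is made mainly by hepatocytes, circulates in plasma and inhibits neutrophil elastase. Humans carry a single gene for it, whereas laboratory mice carry several copies. *Serpina3n* and its relatives stand in mice for the single human antichymotrypsin gene, and *Serpina3n* is a known acute-phase gene of the liver. Vaspin is better known from adipose tissue and inhibits a kallikrein.

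The libraries held 46306518 to 74336255 counted reads, and the 9 genes took 2.02% to 5.37% of them. The 5 hepatocyte markers tested summed to 78654 to 124197 CPM (counts scaled to a common library size) over the livers. On the control diet the targeted gene was read more in the livers labelled *Ahr* HKO, at 41.3 to 65.5 CPM against 16.6 to 20.1 CPM in WT+con (log2 FC 1.63 ± 0.19 SE, adjusted *P* = 0.00164 by edgeR's quasi-likelihood test). On ethanol the ranges overlapped, at 24.7 to 41.8 CPM in *Ahr* HKO+EtOH and 20.8 to 30.5 CPM in WT+EtOH. The deposited value covers all exons, and the deletion removes exon 2 alone, so it does not check the deletion, and each direction between genotypes below rests on the labels. No library was a copy of another. The labels give 3 separate mice per group and no batch or date.

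All 9 genes lie in the serpin cluster of chromosome 12 (GRCm38). The *Serpina1* genes stand in the order b, d, a, c, e on the minus strand, from *Serpina1b* at chr12:103728156-103738189 to *Serpina1e* at chr12:103946931-103956897. *Serpina12* follows on the same strand at chr12:104028769-104044443. *Serpina3k* (chr12:104338486-104345739), *Serpina3m* (chr12:104387157-104394259) and *Serpina3n* (chr12:104406646-104414334) lie on the plus strand. An annotated antisense gene overlaps *Serpina1c*, and the strand setting of the counting is not given in the sources used here.

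The coding sequences of the 5 *Serpina1* copies are each 1239 bases long and differ at 19 to 46 positions between any pair, an identity of 96.3% to 98.5%. The differences are dense in the last coding exon, exon 5, where the reactive centre loop is encoded. The loop stretch is shown because the loop sets which protease is caught, and because reads there can tell the copies apart. Each line gives coding positions 1081 to 1170 (minus strand, GENCODE M21 transcripts matched to RefSeq), and capitals mark the 18 positions at which the 5 genes are not all alike.
Serpina1a: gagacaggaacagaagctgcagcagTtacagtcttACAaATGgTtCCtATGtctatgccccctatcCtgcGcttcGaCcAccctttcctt
Serpina1b: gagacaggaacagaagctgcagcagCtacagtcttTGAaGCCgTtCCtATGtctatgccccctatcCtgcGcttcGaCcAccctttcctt
Serpina1c: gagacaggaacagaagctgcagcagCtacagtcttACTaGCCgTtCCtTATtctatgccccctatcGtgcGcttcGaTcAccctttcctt
Serpina1d: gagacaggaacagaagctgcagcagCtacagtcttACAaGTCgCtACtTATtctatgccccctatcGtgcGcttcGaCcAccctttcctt
Serpina1e: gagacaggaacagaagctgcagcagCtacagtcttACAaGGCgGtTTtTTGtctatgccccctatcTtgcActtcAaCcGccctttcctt

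*Serpina1e* differs from the other copies at 10 to 12 of these 90 bases, and the stretch lies at chr12:103947090-103947179. *Serpina1a* and *Serpina1c* are the closest pair outside the loop, with 9 differences in the remaining 1149 bases. Reads were 100 bases long from both ends. Of the 100-base windows of each transcript, 81.8% were unique to *Serpina1e* among the 9 genes, against 75.4% for *Serpina1b*, 73.7% for *Serpina1d*, 42.0% for *Serpina1a* and 41.5% for *Serpina1c*. Single values of *Serpina1a* and *Serpina1c* are therefore the least certain of the group, and how shared reads were assigned is not given in the sources used here.

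*Serpina1e* was the most abundant of the 9 genes in WT+con and the only member called lower with ethanol in WT livers. Per length, it stood at 8680 ± 200 FPKM (SD, n = 3) in WT+con, rank 10 of all genes in the table, ahead of *Serpina3k* at 6194 ± 784 FPKM. In WT+EtOH its mean was 788 ± 297 FPKM, rank 91. Among the *Serpina1* genes it thus went from the highest to the lowest mean level, and its FPKM was below 2100 ± 223 for *Serpina1d*, the next lowest.

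The 3 WT+con livers had 12883, 12712 and 12284 CPM of *Serpina1e*, and the 3 WT+EtOH livers 1467, 573 and 1074 CPM. No ethanol-fed WT liver came near the control range. The log2 FC was −3.60 ± 0.35 (SE), a 12.1-fold decrease (edgeR's quasi-likelihood test, Benjamini-Hochberg adjusted *P* = 0.00267). Of the 9 genes, *Serpina1e* was the 1 that was called lower in this comparison and *Serpina3m* the 1 that was called higher. Across the 14038 genes tested, 4.63% were called lower and 4.84% higher.

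None of the other 4 copies passed in the same livers. *Serpina1b* had 6707, 6197 and 6597 CPM in WT+con and 7291, 5010 and 5972 CPM in WT+EtOH, with a log2 FC of −0.08 ± 0.18 (adjusted *P* = 0.807). *Serpina1d* had a log2 FC of −0.19 ± 0.16 (adjusted *P* = 0.479). *Serpina1a* and *Serpina1c* stood lower in every ethanol-fed WT liver than in any control liver, with log2 FCs of −0.41 ± 0.17 (adjusted *P* = 0.184) and −0.44 ± 0.19 (adjusted *P* = 0.188), neither of which passed the test. The direction turned on quantile-normalized FPKM, which sets values by rank. There all 4 were higher with ethanol, and *Serpina1b* (0.89, adjusted *P* = 0.00799), *Serpina1c* (0.72, adjusted *P* = 0.0181) and *Serpina1d* (0.45, adjusted *P* = 0.0202) passed as higher by limma. It was the only 1 of 16 alternatives that turned the sign of *Serpina1a*, *Serpina1c* or *Serpina1d*, while 4 of the 16 turned that of *Serpina1b*. DESeq2 called *Serpina1a* lower (−0.42, adjusted *P* = 0.049).

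The sum over the 5 copies was 34451, 33552 and 33453 CPM in WT+con and 21355, 14462 and 19424 CPM in WT+EtOH. The groups were apart, and the sum fell by 0.87 ± 0.22 on the log2 scale (adjusted *P* = 0.0495). That call was at the threshold: it was lost when any of the 6 libraries was left out, with adjusted *P* values up to 0.132. The share of *Serpina1* reads that came from *Serpina1e* does not depend on the scaling between libraries, though it does depend on how shared reads were assigned. It was 37.3% ± 0.586 (SD, n = 3) in WT+con and 5.45% ± 1.46 in WT+EtOH, as the bars of family composition show.

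**Figure D1:**
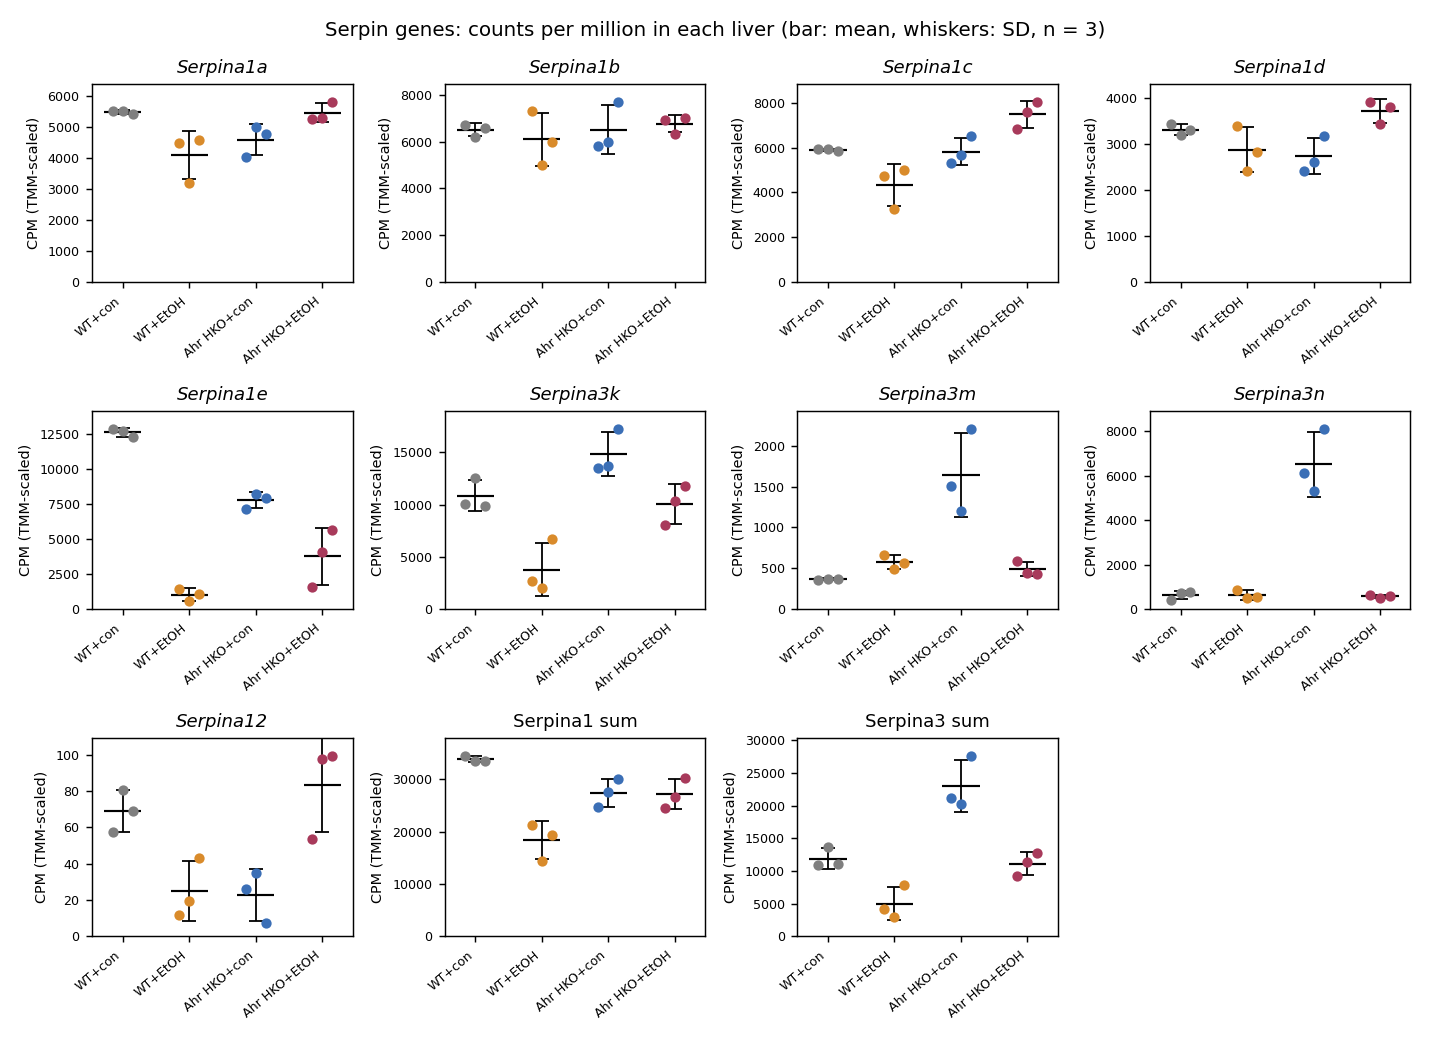
CPM of each of the 9 genes and of both sums (y axes, scaled by TMM factors, linear from 0) in the 4 groups (x axes). Points are single livers, bars the mean and whiskers the SD of 3 livers. *Serpina1e* is at 12284 to 12883 CPM in WT+con and at 573 to 1467 CPM in WT+EtOH, and *Serpina3n* is at 5301 to 8117 CPM in *Ahr* HKO+con and at most 881 CPM elsewhere.

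In *Ahr* HKO livers *Serpina1e* started lower and varied more on ethanol. The *Ahr* HKO+con livers had 7134, 8233 and 7953 CPM, all below the 3 WT+con livers. The log2 FC between genotypes on the control diet was −0.70 ± 0.16 (adjusted *P* = 0.0179), a 1.62-fold decrease. Without WT+con replicate 2, WT+con replicate 3 or *Ahr* HKO+con replicate 1 the adjusted *P* was 0.0613, 0.0756 and 0.0664, and with all 12 libraries in a single fit it was 0.211, so this call depends on the livers and the fit used.

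The *Ahr* HKO+EtOH livers had 1603, 4083 and 5663 CPM of *Serpina1e*. All 3 were below the *Ahr* HKO+con livers and above the WT+EtOH livers, but the lowest was close to the highest WT+EtOH liver and the 3 were far apart. Against *Ahr* HKO+con the log2 FC was −1.04 ± 0.41 (adjusted *P* = 0.0953), and against WT+EtOH it was 1.88 ± 0.50 (adjusted *P* = 0.112), so neither passed. The estimate against WT+EtOH passed with DESeq2 (1.87, adjusted *P* = 0.000873) and with all 12 libraries in a single fit (1.87, adjusted *P* = 0.0348). The ethanol estimate in *Ahr* HKO was −0.67 without *Ahr* HKO+EtOH replicate 1 and −1.45 without replicate 3, past the threshold in neither case, and it passed with DESeq2 (adjusted *P* = 0.0185) and, narrowly, on quantile-normalized FPKM (adjusted *P* = 0.0499). The difference between the ethanol effects, tested as the interaction of genotype and diet over all 12 livers, was 2.57 ± 0.57 (adjusted *P* = 0.0101), a smaller decrease in *Ahr* HKO than in WT. The share of *Serpina1* reads from *Serpina1e* was 28.4% ± 1.81 in *Ahr* HKO+con and 6.53%, 15.3% and 18.7% in the *Ahr* HKO+EtOH livers.

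**Figure D2:**
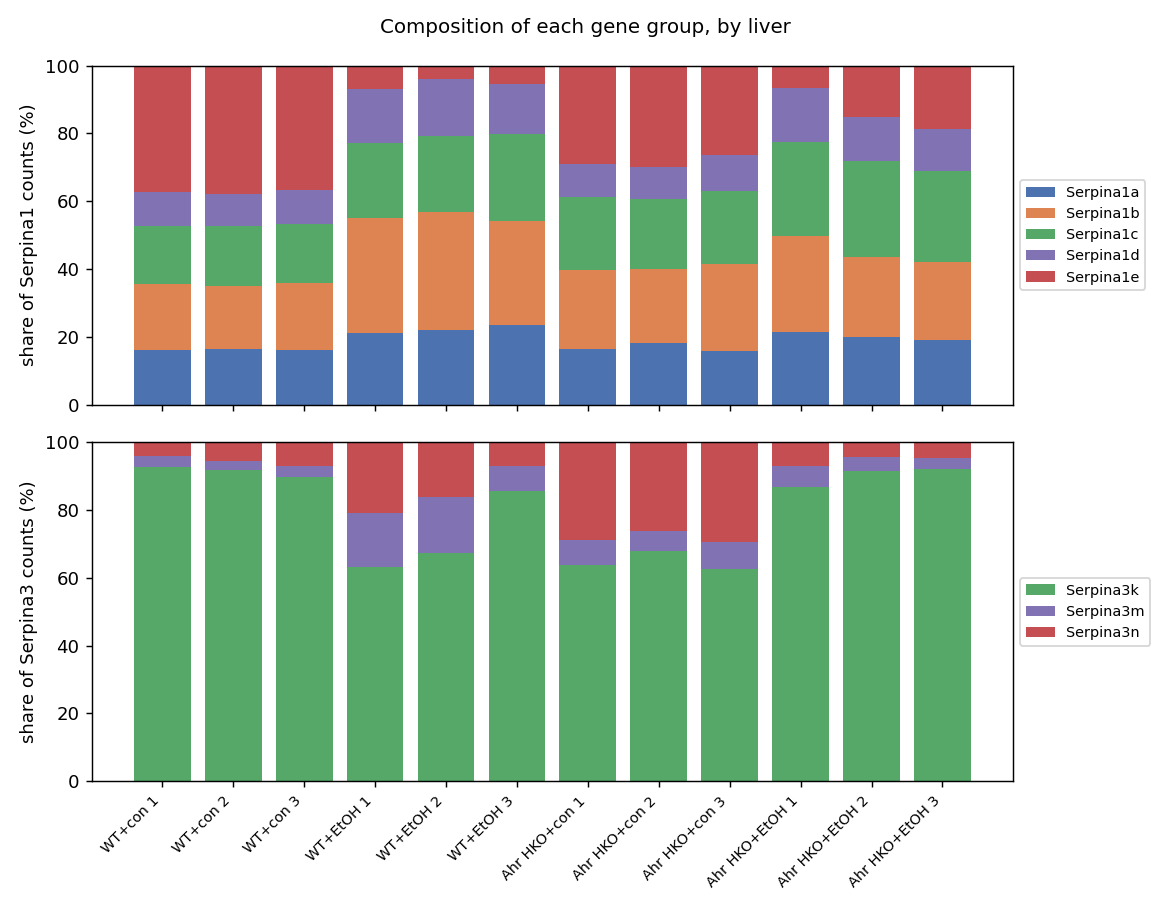
Share of each gene in the counted reads of its group (y axes, %), for *Serpina1* (upper) and *Serpina3* (lower), in each of the 12 livers (x axis). *Serpina1e* made up 36.7% to 37.9% of *Serpina1* reads in WT+con and 3.96% to 6.87% in WT+EtOH, while *Serpina3n* made up 26.2% to 29.4% of *Serpina3* reads in *Ahr* HKO+con.

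For *Serpina1c* the interaction was 0.81 ± 0.24 (adjusted *P* = 0.0333), with 5923, 5952 and 5862 CPM in WT+con, 4726, 3279 and 4994 in WT+EtOH, 5316, 5653 and 6515 in *Ahr* HKO+con and 6836, 7578 and 8053 in *Ahr* HKO+EtOH. The *Ahr* HKO+EtOH livers were the highest of the 12. Leaving out single libraries ended the call in 8 of 12 cases, with adjusted *P* values of 0.0565 to 0.0802 (without a WT+con library, WT+EtOH replicate 2, *Ahr* HKO+con replicate 1 or 2, or *Ahr* HKO+EtOH replicate 2 or 3), and the sign turned to −0.37 (adjusted *P* = 0.276) on quantile-normalized FPKM. The sum of the 5 copies had an interaction of 0.86 ± 0.26 (adjusted *P* = 0.0354), and it did not move with ethanol in *Ahr* HKO livers by more than the spread (log2 FC −0.01 ± 0.20, adjusted *P* = 0.97), at 24675 to 30089 CPM in *Ahr* HKO+con and 24542 to 30304 CPM in *Ahr* HKO+EtOH. The summed interaction lost its call in 9 of 12 such fits, with adjusted *P* values up to 0.0932.

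RefSeq promoters (GRCm38.p6, from 250 bases before to 50 bases after the start) were held for 7 of the 9 genes and were searched for short motifs, with the share among all 32851 promoters beside each. TGTTCT, a core motif of the glucocorticoid receptor (19.0% of all windows), was present once in each of the 5 *Serpina1* promoters and in that of *Serpina3n*. GTTAAT, a half-site of the transcription factor HNF1 (7.10% of windows), was in the same 5 *Serpina1* promoters only. These 5 promoters are near-copies, so their hits are not independent: a 120-base stretch differed from that of *Serpina1a* at 4 to 10 bases. The STAT pattern TTCNNNGAA (8.30% of windows) was in none of the 7 promoters of these genes that the table held. GCGTG, the core of the element that AhR binds (32.4% of windows), was found only in that of *Serpina12*, starting 42 bases before the gene's start. Both strands were searched, and the motifs did not overlap. Promoters of *Serpina3k* and *Serpina3m* were not used here.

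*Serpina3n* and *Serpina3m* were the members that edgeR called higher in *Ahr* HKO livers on the control diet, and both fell again on ethanol. *Serpina3n* had 432, 736 and 755 CPM in WT+con and 6131, 5301 and 8117 CPM in *Ahr* HKO+con. Every *Ahr* HKO+con liver lay far above every WT+con liver. The log2 FC was 3.35 ± 0.29 (adjusted *P* = 0.000932), a 10.2-fold increase. In FPKM the mean went from 290 ± 81.4 to 2977 ± 504, and the rank among all genes from 225 to 33.

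*Serpina3m* had 352, 370 and 375 CPM in WT+con and 1502, 1204 and 2207 CPM in *Ahr* HKO+con. Again the groups were apart, with a log2 FC of 2.17 ± 0.23 (adjusted *P* = 0.0014), a 4.50-fold increase. *Serpina3k*, known as contrapsin and the main *Serpina3* gene in every liver, had a log2 FC of 0.46 ± 0.20 (adjusted *P* = 0.13), at 9888 to 12574 CPM in WT+con and 13533 to 17255 CPM in *Ahr* HKO+con. DESeq2 called *Serpina3k* higher (0.46, adjusted *P* = 0.0194). Limma did so on quantile-normalized FPKM (0.75, adjusted *P* = 0.00633), log2(FPKM + 1) (0.47, adjusted *P* = 0.0271) and log2(FPKM + 0.1) (0.47, adjusted *P* = 0.0443). By edgeR's test 2 of the 9 genes were thus called higher and 2 lower (*Serpina1e* and *Serpina12*) in *Ahr* HKO on the control diet, where 15.4% and 14.2% of all tested genes were called. The *Serpina3* sum rose by a log2 FC of 0.96 ± 0.22 (adjusted *P* = 0.0164), and without WT+con replicate 3 the adjusted *P* was 0.0905.

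On the ethanol diet the *Ahr* HKO livers had 639, 501 and 586 CPM of *Serpina3n*, in the range of the WT livers of either diet. The decrease from *Ahr* HKO+con was 3.50 ± 0.23 on the log2 scale (11.3-fold, adjusted *P* = 0.000982). *Serpina3m* fell to 589, 443 and 435 CPM, a log2 FC of −1.75 ± 0.26 (adjusted *P* = 0.00462). *Serpina3k* had 8014, 10365 and 11749 CPM, all below the *Ahr* HKO+con livers, with a log2 FC of −0.56 ± 0.22 that did not pass (adjusted *P* = 0.0894). It passed as lower with DESeq2 (−0.55, adjusted *P* = 0.0144). By limma it passed on quantile-normalized FPKM (adjusted *P* = 0.00432), log2(FPKM + 1) (0.0221) and log2(FPKM + 0.1) (0.0305). The *Serpina3* sum fell by 1.05 ± 0.23 (adjusted *P* = 0.0138), and without *Ahr* HKO+EtOH replicate 1 the adjusted *P* was 0.0663. By edgeR's test ethanol in *Ahr* HKO livers moved 2 of the 9 genes lower and 1 higher, against 15.9% and 14.9% of all tested genes.

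In WT livers ethanol gave another pattern. *Serpina3n* had 881, 487 and 549 CPM in WT+EtOH, which overlapped WT+con (log2 FC 0.01 ± 0.28, adjusted *P* = 0.993). *Serpina3m* had 669, 494 and 562 CPM, all above WT+con, and rose by a log2 FC of 0.67 ± 0.13 (adjusted *P* = 0.023). That call was lost without any 1 of the WT+con libraries (adjusted *P* 0.0767 to 0.0837), with all 12 libraries in a single fit (0.0698) and with the replicate number as a block (0.0676). *Serpina3k* had 2658, 2021 and 6670 CPM, below every WT+con liver but with 1 liver well above the other 2. Its log2 FC was −1.51 ± 0.44 (adjusted *P* = 0.0752), while DESeq2 (adjusted *P* = 0.0444) and all 12 libraries in a single fit (0.0258) called it lower. Without WT+EtOH replicate 3 the estimate was −2.20 (adjusted *P* = 0.00548). The sum followed *Serpina3k*, with a log2 FC of −1.24 ± 0.35 (adjusted *P* = 0.0687), and −1.71 without that liver (adjusted *P* = 0.0135).

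The ethanol effects on *Serpina3n* and *Serpina3m* differed between the genotypes, with interactions of −3.50 ± 0.39 (adjusted *P* = 0.000369) and −2.40 ± 0.30 (adjusted *P* = 0.000646). The interaction of *Serpina3k* was 0.96 ± 0.52 (adjusted *P* = 0.206), and without WT+EtOH replicate 3 it was 1.65 (adjusted *P* = 0.00565). Of the 9 genes, 5 had a called interaction, 3 positive and 2 negative, and 11.2% and 11.1% of all tested genes were called in these directions. Within the *Serpina3* reads, *Serpina3k* fell from 91.5% ± 1.57 in WT+con to 64.8% ± 2.73 in *Ahr* HKO+con and stood at 90.1% ± 2.96 in *Ahr* HKO+EtOH. It was 72.1% ± 12 in WT+EtOH, where 1 liver was apart from the others.

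The 3 *Serpina3* genes are easier to tell apart than the *Serpina1* copies. Their coding sequences are 1254 bases long. The identity is 91.0% between *Serpina3k* and *Serpina3m*, 85.2% between *Serpina3m* and *Serpina3n*, and 82.7% between *Serpina3k* and *Serpina3n*. Of their 100-base windows, 93.9% to 100% were unique among the genes described here. The windows were not compared with other *Serpina3* genes of the cluster, so reads shared with those were not tested. The loop stretches of these 3 genes in exon 5 are shown because the loop sets which protease is caught. Parts of these stretches are shared by pairs of the genes. Capitals mark all bases from the first to the last at which the 3 genes differ, and the stretch ends at coding position 1191 in each.
Serpina3k: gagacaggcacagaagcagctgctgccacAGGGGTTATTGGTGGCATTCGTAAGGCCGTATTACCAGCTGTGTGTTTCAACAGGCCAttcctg
Serpina3m: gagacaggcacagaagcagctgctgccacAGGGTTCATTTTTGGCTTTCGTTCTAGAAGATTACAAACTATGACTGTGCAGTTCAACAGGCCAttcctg
Serpina3n: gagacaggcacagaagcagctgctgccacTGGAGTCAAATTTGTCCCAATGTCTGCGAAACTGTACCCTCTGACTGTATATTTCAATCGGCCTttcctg

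These stretches lie at chr12:104345263-104345355 for *Serpina3k*, chr12:104393763-104393861 for *Serpina3m* and chr12:104413442-104413540 for *Serpina3n*. *Serpina3k* has 93 bases where the other 2 have 99.

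*Serpina12* was the least abundant member, at 17.6 ± 2.85 FPKM in WT+con, and its groups crossed. The livers had 57.3, 80.8 and 69.1 CPM in WT+con, 11.7, 19.2 and 43.3 in WT+EtOH, 26.3, 34.9 and 7.30 in *Ahr* HKO+con and 53.7, 97.6 and 99.3 in *Ahr* HKO+EtOH. The level was high in the WT control and the *Ahr* HKO ethanol livers and low in the other 2 groups. On the control diet it was lower in *Ahr* HKO (log2 FC −1.59 ± 0.49, adjusted *P* = 0.0445), and in *Ahr* HKO it rose with ethanol (log2 FC 1.88 ± 0.53, adjusted *P* = 0.0341). The WT estimate was −1.47 ± 0.44 (adjusted *P* = 0.0819). The interaction, 3.35 ± 0.77, passed (adjusted *P* = 0.0116).

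Single livers weighed on both called pairs of *Serpina12*. The genotype call was lost without any 1 of the WT+con libraries or without *Ahr* HKO+con replicate 1 (adjusted *P* 0.0791 to 0.118), and the diet call without *Ahr* HKO+con replicate 1 (0.0754), *Ahr* HKO+EtOH replicate 2 (0.0828) or replicate 3 (0.0937). The interaction held when each library was left out, and was 4.03 without WT+EtOH replicate 3. The WT estimate without that liver was −2.14 (adjusted *P* = 0.0107).

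**Figure D3:**
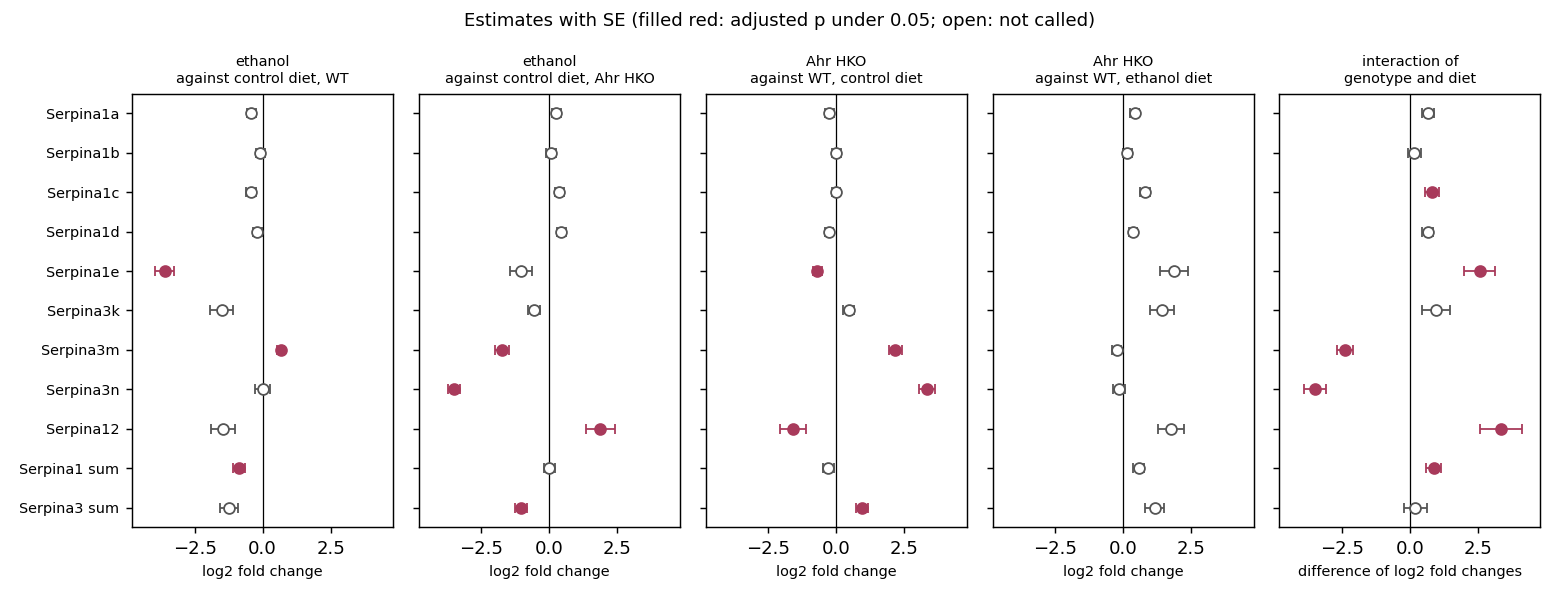
Log2 FC of each gene and sum (x axes, SE as whiskers) in the 4 pairs of groups and the difference of the ethanol effects between genotypes (right panel). Filled red points have an adjusted *P* under 0.05. *Serpina1e* is at −3.60 for ethanol in WT, *Serpina3n* at 3.35 between genotypes on the control diet and at −3.50 for ethanol in *Ahr* HKO, and no point is filled for the genotypes on the ethanol diet.

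Over all 12 livers *Serpina1a*, *Serpina1b* and *Serpina1d* ranged from 3192 to 5808, 5010 to 7700 and 2408 to 3914 CPM, and none of them passed edgeR's test in any comparison. In *Ahr* HKO livers with ethanol their log2 FCs were 0.25 ± 0.16, 0.05 ± 0.18 and 0.44 ± 0.17 (adjusted *P* = 0.261, 0.844 and 0.081). The interactions of *Serpina1a* (0.67 ± 0.22, adjusted *P* = 0.0516) and *Serpina1d* (0.65 ± 0.22, adjusted *P* = 0.0539) missed the threshold by little, and that of *Serpina1b* was 0.15 ± 0.24 (adjusted *P* = 0.696). DESeq2 called the interactions of *Serpina1a* (adjusted *P* = 0.00477) and *Serpina1d* (adjusted *P* = 0.00949) and the ethanol effect on *Serpina1d* in *Ahr* HKO (adjusted *P* = 0.0101).

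Between the genotypes on the ethanol diet none of the 9 genes passed the test with edgeR, where 0.712% of all tested genes were called higher and 0.392% lower. DESeq2 called 4 of the 9 there, all higher: *Serpina1c*, *Serpina1e*, *Serpina3k* and *Serpina12*. It called 714 higher and 797 lower of the 14038 genes tested. By edgeR *Serpina1c* had the smallest adjusted *P* of the 9 (log2 FC 0.79 ± 0.18, adjusted *P* = 0.0887). Its adjusted *P* was 0.000419 with DESeq2 and 0.0324 with all 12 libraries in a single fit, while its estimate turned to −0.0896 on quantile-normalized FPKM. The largest estimates were those of *Serpina1e* (above), *Serpina12* (log2 FC 1.76 ± 0.48, adjusted *P* = 0.118) and *Serpina3k* (1.41 ± 0.44, adjusted *P* = 0.14), all higher in *Ahr* HKO+EtOH. Without WT+EtOH replicate 3 the estimates of *Serpina12* and *Serpina3k* were 2.43 (adjusted *P* = 0.0482) and 2.1 (adjusted *P* = 0.0264), and that of the *Serpina3* sum went from 1.16 (adjusted *P* = 0.13) to 1.63 (adjusted *P* = 0.0416).

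Of 17 other genes of the same serpin clade, 12 passed the filter on low counts. In *Ahr* HKO on the control diet 5 of the 12 were higher and none lower, against 15.4% and 14.2% of all tested genes. They were *Serpina7*, the thyroxine-binding globulin (log2 FC 2.63 ± 0.30, adjusted *P* = 0.00162), *Serpina10*, the protein Z-dependent protease inhibitor (1.61 ± 0.25, adjusted *P* = 0.00421), and *Serpina3h* (1.64 ± 0.30, adjusted *P* = 0.00779), *Serpina3f* and *Serpina3i*, of which none was above 6.76 CPM in these 6 livers. Ethanol in *Ahr* HKO lowered *Serpina10* by 1.92 ± 0.15 and *Serpina7* by 2.04 ± 0.25 on the log2 scale, with 3 of the 12 called lower and 1 higher, against 15.9% and 14.9% of all tested genes. *Serpina10* lies in the cluster, with its midpoint 109 kb from that of *Serpina1b*.

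*Serpina6*, which encodes corticosteroid-binding globulin and lies between *Serpina10* and *Serpina1b*, was 1 of 2 called in WT livers on ethanol, beside *Serpina3c*, which was lower but near the detection limit (mean 0.39 CPM in WT+con). That was 1 of the 12 in each direction, against 4.84% higher and 4.63% lower of all tested genes. *Serpina6* had 214, 154 and 161 CPM in WT+con and 574, 501 and 324 CPM in WT+EtOH, a log2 FC of 1.42 ± 0.23 (adjusted *P* = 0.0153). *Serpina1e* fell in the same livers. *Serpina11*, the next tested gene after *Serpina1e*, had a log2 FC of −0.91 ± 0.32 (adjusted *P* = 0.126). Neighbouring genes of the cluster thus had estimates of either sign, as the plot in chromosomal order shows.

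**Figure D4:**
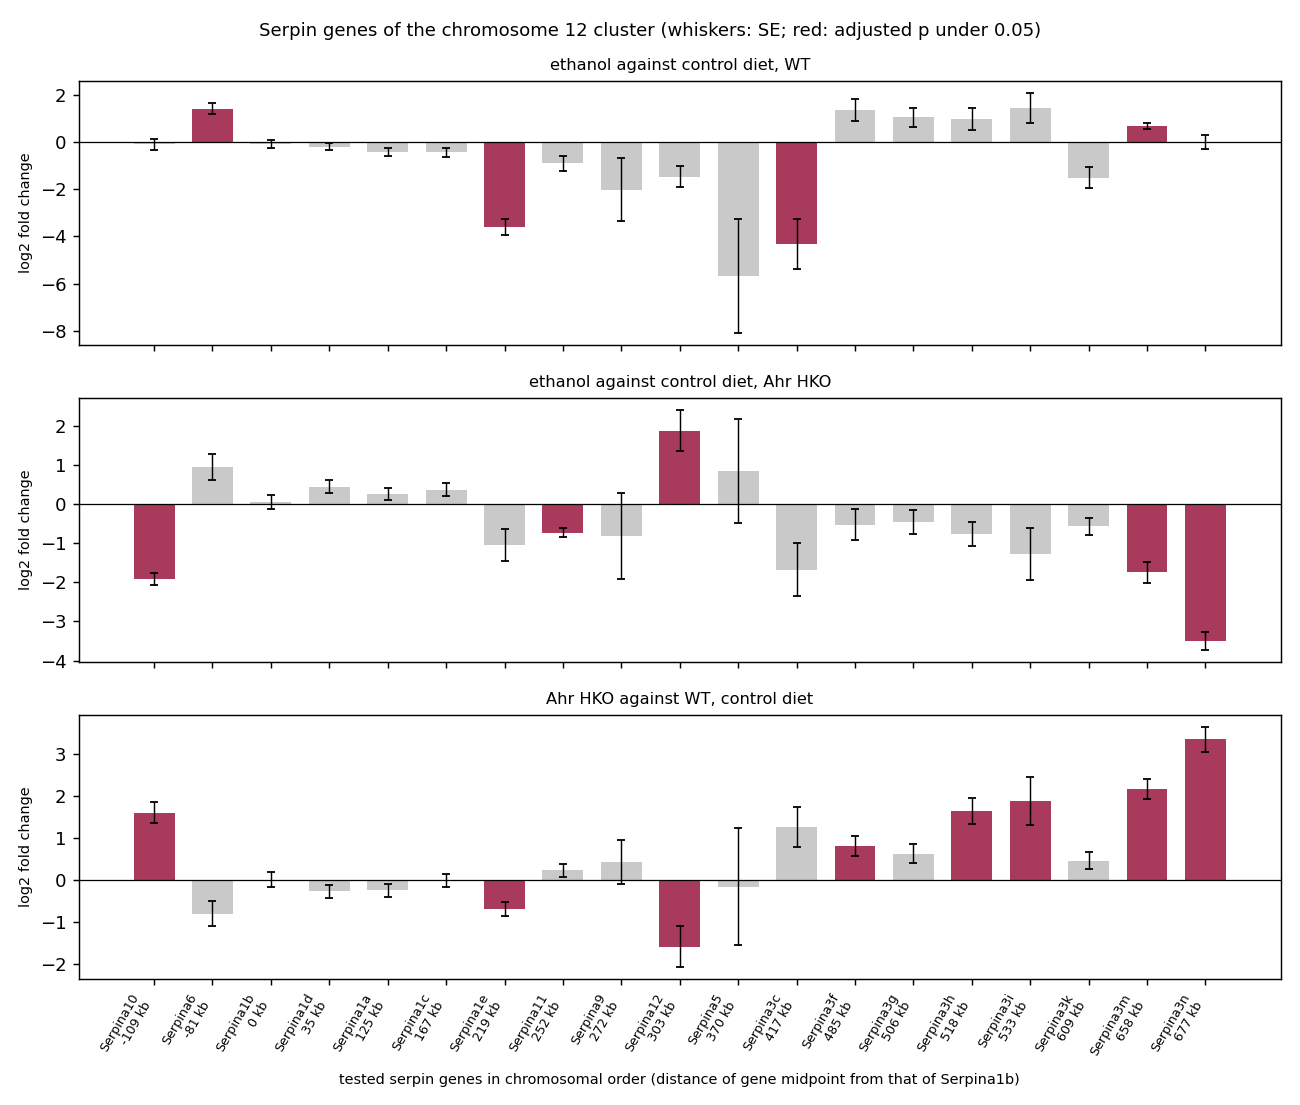
Log2 FC (y axes, whiskers SE) of the 19 tested serpin genes of the chromosome 12 cluster, in chromosomal order with the distance of each midpoint from that of *Serpina1b* in kb (x axis), for ethanol in WT, ethanol in *Ahr* HKO and the genotypes on control diet. Red bars have an adjusted *P* under 0.05. *Serpina1e* (219 kb, −3.60) has a red bar in the upper panel, between *Serpina1c* and *Serpina11*, which have none, and *Serpina3n* (677 kb) has the tallest bar of the lower panel.

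Many acute-phase genes and cytokine receptors of the liver were called in the same comparisons and directions as *Serpina3n*. Of 22 such genes, 12 were higher and none lower in *Ahr* HKO on the control diet, where 15.4% of all tested genes were called higher. Their median log2 FC was 1.11, against −0.000962 over all tested genes. They included the IL-1 receptor *Il1r1* (2.66 ± 0.21, adjusted *P* = 0.000876), the shared IL-6 family receptor chain *Il6st* (1.05 ± 0.11), *Crp* (1.12 ± 0.13) and the fibrinogen chain *Fga* (1.55 ± 0.21). With ethanol in *Ahr* HKO 20 of the 22 were lower and none higher, where 15.9% of all tested genes were called lower, with a median of −1.75 against −0.0170. The serum amyloids *Saa1* (−5.39 ± 0.32) and *Saa2* (−7.25 ± 0.47) and the neutrophil gelatinase-associated lipocalin *Lcn2* (−6.08 ± 0.52) were among them. Within WT+con the livers were not alike in *Saa1*, at 31.5, 2571 and 2696 CPM, and the liver lowest in *Saa1* was also the one lowest in *Serpina3n*.

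In WT livers on ethanol 1 of the 22 passed, *Saa4*, which was lower (−1.09 ± 0.19, adjusted *P* = 0.0182). That share was near the 4.63% of all tested genes called lower there, and the median of the 22 was −0.61. *Serpina3m* rose there. Between the genotypes on ethanol 2 of the 22 were higher, *Saa4* (1.23 ± 0.13) and *Il6ra* (1.01 ± 0.13), against 0.712% of all tested genes. The summed level of the 22 genes was 77851 to 99461 CPM in *Ahr* HKO+con, 24530 to 50937 CPM in WT+con, 21232 to 28009 CPM in WT+EtOH and 20398 to 25912 CPM in *Ahr* HKO+EtOH. The *Ahr* HKO+con livers were highest, as for *Serpina3n*.

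**Figure D5:**
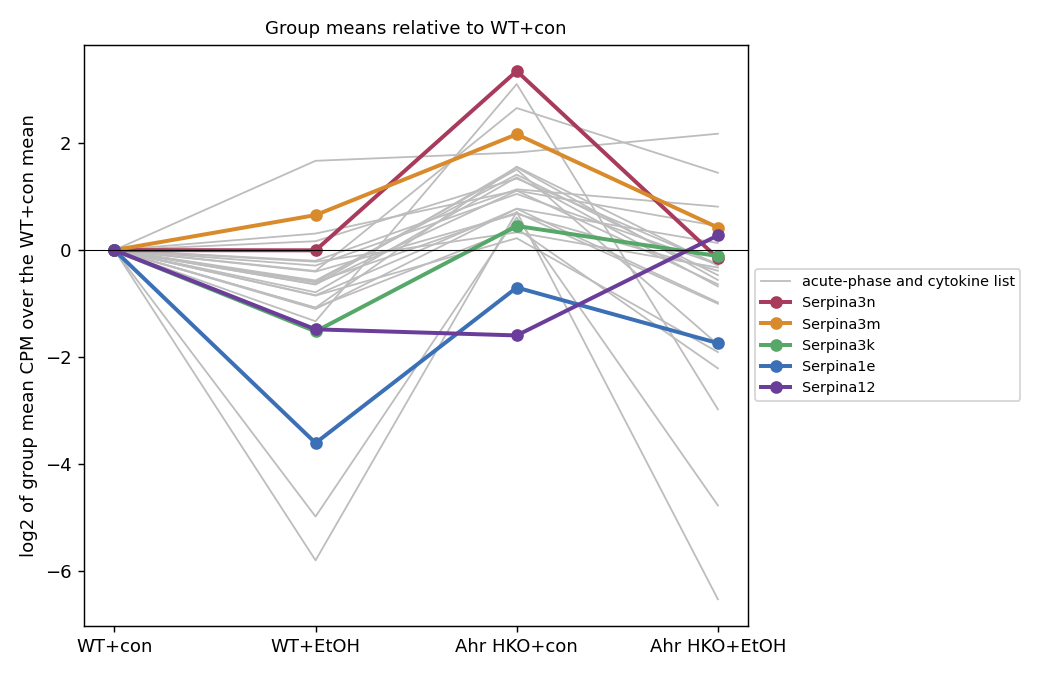
Log2 of each group's mean CPM over the WT+con mean (y axis) in the 4 groups (x axis), for 5 serpin genes (coloured lines) and the 22 acute-phase and cytokine receptor genes (grey lines). *Serpina3n* peaks in *Ahr* HKO+con (mean 6516 CPM) and is close to its WT+con mean of 641 CPM in WT+EtOH (639) and *Ahr* HKO+EtOH (576), whereas *Serpina1e* is lowest in WT+EtOH.

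Markers of other cell types also differed between these groups, and their part in the serpin values was not tested. In a whole liver, fewer cells of a type and less RNA per cell cannot be told apart. The 6 neutrophil genes summed to 7.68 to 9.05 CPM in *Ahr* HKO+con, 1.59 to 3.17 in WT+con, 4.46 to 8.02 in WT+EtOH and 2.50 to 3.73 in *Ahr* HKO+EtOH, against 432 to 8117 CPM of *Serpina3n* over all livers. Of the 6 macrophage genes all were lower with ethanol in *Ahr* HKO, against 15.9% of all tested genes, from sums of 194 to 564 CPM down to 137 to 165 CPM. None of the 6 was called between genotypes on the control diet, against 15.4% higher and 14.2% lower of all tested genes. The 6 adipocyte genes summed to 30.7 to 46.7 CPM in *Ahr* HKO+con and at most 9.77 CPM elsewhere, while 3 of the 6 were at 0 in *Ahr* HKO+con. Both genes that passed the filter, *Cidec* and *Cfd*, were called higher in *Ahr* HKO+con than in WT+con, against 15.4% of all tested genes. *Cfd* was at 34.7, 0.512 and 2.26 CPM in the *Ahr* HKO+con livers, mostly in replicate 1, and at 0.266 to 0.607 CPM in WT+con. *Cidec* was at 11.9, 30.2 and 33.0 CPM in the *Ahr* HKO+con livers. The cholangiocyte sum reached 476 CPM in *Ahr* HKO+con replicate 1 and was at most 132 CPM in the other groups. Most of it was a single gene, *Spp1*, at 462, 166 and 35.0 CPM in the *Ahr* HKO+con livers. In replicate 1 *Krt19*, *Krt7*, *Epcam* and *Sox9* were at 1.08, 0.572, 7.71 and 4.33 CPM.

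The endothelial sums were 167 to 187 CPM in *Ahr* HKO+EtOH and 176 to 368 CPM in the other groups. With ethanol in *Ahr* HKO 3 of the 6 endothelial genes were lower, against 15.9% of all tested genes. Stellate genes summed to 267 to 303 CPM in WT+EtOH and 143 to 230 CPM elsewhere. With ethanol in WT 2 of the 6 stellate genes were higher, against 4.84% of all tested genes. Lymphocyte genes were at most 2.87 CPM and pancreatic acinar genes at most 1.36 CPM in every liver, with 4 acinar genes of 5 at 0 in WT+con.

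Of 15 liver transcription factors, 5 were higher and 3 lower in *Ahr* HKO on the control diet, where 15.4% and 14.2% of all tested genes were called. *Hnf4a* (log2 FC 0.97 ± 0.14, adjusted *P* = 0.00331), *Cebpd* (1.48 ± 0.22) and *Stat3* (0.89 ± 0.16) were among those higher. With ethanol in *Ahr* HKO 2 of the 15 were lower, a share below the 15.9% of all tested genes, *Foxa3* (−0.71 ± 0.21) and *Stat3* (−0.53 ± 0.17), and none was called in WT.

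Genes that fold, export and degrade secreted proteins were higher in *Ahr* HKO on the control diet for 11 of 17 and lower for none, with a median of 0.61, against 15.4% and 14.2% of all tested genes called. The COPII coat subunit *Sec24d* (1.24 ± 0.14), the ubiquitin ligase *Syvn1* (2.55 ± 0.31), the chaperone *Hspa5* (2.35 ± 0.33) and the cargo receptor *Surf4* (0.61 ± 0.11) had the smallest adjusted *P* values. With ethanol in *Ahr* HKO 2 of the 17 were lower, *Sec24d* (−1.06 ± 0.18) and *Sec24c* (−0.61 ± 0.11), a share below the 15.9% of all tested genes. With ethanol in WT 1 of the 17 was higher, the export cofactor *Mcfd2* (0.60 ± 0.11, adjusted *P* = 0.0221), against 4.84% of all tested genes.

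Among 10 tested proteases that serpins of these types can meet, *F11* (−2.33 ± 0.25), *Cela1* (−1.35 ± 0.17) and *Prtn3* (−4.65 ± 1.02) were lower and none higher with ethanol in WT, where 4.63% of all tested genes were called lower. *Prtn3* was at 12.8 CPM or less in the WT livers and at up to 44.1 CPM in 1 *Ahr* HKO+con liver. The elastase gene *Elane*, the classical target of alpha-1 antitrypsin, was at most 0.529 CPM in any liver. *Klkb1*, plasma kallikrein, was lower in *Ahr* HKO on the control diet (−1.36 ± 0.13) and higher with ethanol in *Ahr* HKO (1.21 ± 0.11).

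Other serpins of plasma and tissue were called in either direction. With ethanol in WT *Serpine2* fell by 2.06 ± 0.24 and *Serpinb1a* rose (1.27 ± 0.26), 1 of 13 in each direction, against 4.84% higher and 4.63% lower of all tested genes. In *Ahr* HKO 5 of 13 rose and 3 fell, against 14.9% and 15.9% of all tested genes, with heparin cofactor *Serpind1* (0.72 ± 0.12), *Serpinf1* (0.84 ± 0.15) and antithrombin *Serpinc1* (0.58 ± 0.13) among those that rose.

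Receptors that clear serpin complexes and plasma glycoproteins were called in part. With ethanol in WT *Lrp1*, the receptor for serpin-protease complexes, was lower (−0.73 ± 0.11, adjusted *P* = 0.0122) and *Vldlr* higher (3.30 ± 0.40), and the other 4 of 6 were not called. Of all tested genes 4.63% were called lower and 4.84% higher there. In *Ahr* HKO with ethanol 3 of the 6 were higher and 2 lower, against 14.9% and 15.9% of all tested genes. Of 8 genes of growth hormone signalling, which is known to act on *Serpina3*-type genes of rat liver, none was called with ethanol in WT. With ethanol in *Ahr* HKO *Socs2* (−2.89 ± 0.45) and *Cish* (−2.48 ± 0.75) fell while *Igfals* (1.48 ± 0.28) and *Ghr* (0.61 ± 0.14) rose. That was 2 of the 8 in each direction, against 15.9% lower and 14.9% higher of all tested genes.

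The genes whose levels were most like those of the serpins are given as a description over the same 12 libraries, which share 4 groups. By Pearson's r of log2 CPM they were 9130221H12Rik (0.944), *Apoa1* (0.942), *Zbtb48* (0.940), *Cep89* (0.940) and *C8b* (0.939) for the *Serpina1* sum. *Apoa1* encodes the main HDL apolipoprotein and *C8b* a complement chain, both plasma proteins of hepatocytes. For the *Serpina3* sum they were *Brwd3* (0.952), *Emsy* (0.949), *Kmt2b* (0.940), *Ccdc25* (0.939) and *Egfr* (0.936). For *Serpina3n* they were *Chmp4b* (0.99), *Pwp1* (0.983), *Myh9* (0.982), *Eif2s1* (0.982) and *Mt4* (0.981), and for *Serpina12* *Syt11* (0.932), *Wdr90* (0.924), *Marf1* (0.922), *Suv420h2* (0.914) and *Cxcl12* (0.912).

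Among the members, *Serpina3m* and *Serpina3n* had the closest profiles (r = 0.94 over the 12 libraries), followed by *Serpina1a* and *Serpina1c* (0.86), the pair with the fewest unique windows, and *Serpina1e* and *Serpina3k* (0.82). *Serpina12* and *Serpina3m* ran opposite (−0.72). *Serpina1e* had r = 0.18 with *Serpina1d*, although their coding sequences are 96.3% identical.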

How the data were processed

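Livers of 12 male mice in 4 groups of 3 were profiled by stranded poly-A RNA-seq (paired 100-base reads), and each library is a separate mouse. The deposited table holds, per gene and library, counts, FPKM and TPM that the authors made from reads on mm10. The submitters' processing notes name FastQC 0.11.7, Trimmomatic 0.38, HISAT2 2.1.0, Bowtie2 2.3.4.1 and StringTie 1.3.4d. The deposited counts are whole numbers, the authors' FPKM values are per length and library size, and the authors' TPM values (sums 924962 to 987569) were used for no test. The assignment of reads common to several gene copies is not given in the sources used here, and a gene that takes reads from its copies would appear to move with them.

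Of 24532 genes, 14038 passed edgeR's filterByExpr over the 4 groups. Counts were scaled by TMM (factors 0.925 to 1.16) and tested with edgeR 4.0.16 (R 4.3.3) by the quasi-likelihood F-test, each pair of groups with its own 6 libraries and the interaction with all 12. A result was called at a Benjamini-Hochberg adjusted p below 0.05 over all tested genes. Sums were tested in the same table with member rows replaced. CPM values carry the TMM scaling, and log2 fold changes are given with their SE. A count of 0 allows up to 3 counts, 0.0404 to 0.0648 CPM by library, and shares had exact binomial intervals 0.0727 to 0.424 percentage points wide. Both cover counting error only. DESeq2 1.42.0, limma 3.58.1 on log2(FPKM + 1) and log2(FPKM + 0.1), and other scalings, filters and left-out libraries were alternatives. The tests were checked on simulated data.

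Named were all 9 genes, both sums, *Ahr*, up to 4 genes of each list by adjusted p, and the 5 genes with the highest Pearson's r over the 12 libraries; *Elane*, the levels of *Saa1* and *Prtn3*, and the cluster neighbours beyond the 4 were added after their values were seen. Some genes that this rule names are not reported here. The members and lists were chosen with earlier results of these data known. Coding sequences came from GENCODE M21 and promoters from RefSeq (GRCm38.p6).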

Additional observations from a re-analysis of the deposited data

Results flagged for a closer look

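The ethanol effect differed between *Ahr* HKO and WT livers, by the interaction in edgeR's quasi-likelihood test, for 5 of the 9 genes and for the *Serpina1* sum. Of the 5 genes 3 were positive and 2 negative, against 11.2% and 11.1% of all tested genes. The difference on the log2 scale was 2.57 for *Serpina1e*, 0.81 for *Serpina1c* and 0.86 for the *Serpina1* sum. It was −2.40 for *Serpina3m*, −3.50 for *Serpina3n* and 3.35 for *Serpina12*. The calls of *Serpina1c* and of the *Serpina1* sum were lost in most fits without 1 library, with adjusted *P* up to 0.0802 and 0.0932 by the same test. On quantile-normalized FPKM these 2 differences were −0.37 and 0. That scaling gives equal ranks equal values, and the *Serpina1* sum was −0.25 for ethanol in both genotypes there. A difference in the sum that leaves its rank alone could not show in that setting.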

How the results depend on the processing

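The calls of *Serpina1e* for ethanol in WT, of *Serpina3m* and *Serpina3n* for ethanol in *Ahr* HKO and for genotype on the control diet, and the interactions of *Serpina1e*, *Serpina3m*, *Serpina3n* and *Serpina12* were kept in every alternative run. Of 765 single-gene alternatives, 659 kept direction and side of the threshold, 28 lost the call, 40 gained it and 38 changed sign. Where a result changed, the cause was not tested. Each group had 3 livers, which limits the precision of every estimate.

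The count of members called was 5, 1 and 5 for ethanol in WT (DESeq2, replicate block, quantile-normalized FPKM), 7, 5 and 5 for ethanol in *Ahr* HKO (DESeq2, quantile-normalized FPKM, log2(FPKM + 1)), and 4, 2 and 1 between genotypes on ethanol (DESeq2, all 12 libraries in 1 fit, replicate block). Leaving out 1 library gave 1 to 4 for ethanol in WT, 2 to 4 for genotype on the control diet and 0 to 2 on ethanol. Of the 14038 genes tested, these fits called 191 to 484 higher and 176 to 593 lower for ethanol in WT. They called 1340 to 1925 higher and 1290 to 1823 lower for genotype on the control diet, and 6 to 98 and 1 to 91 on ethanol. The replicate numbers share only a name: same-numbered libraries had correlations of −0.088 to 0.178, and the replicate block gave 289 higher and 228 lower genes for ethanol in WT and 150 and 95 between genotypes on ethanol. DESeq2 gave 1190 and 1145, and 714 and 797, with 2563 higher and 2576 lower for ethanol in *Ahr* HKO. All 12 libraries in 1 fit gave 329 higher and 246 lower between genotypes on ethanol. Of 13345 genes, quantile-normalized FPKM gave 566 higher and 704 lower for ethanol in WT, and 2132 and 2026 in *Ahr* HKO. For ethanol in *Ahr* HKO log2(FPKM + 1) gave 1701 higher and 2439 lower of the same 13345. Without quantile normalization, log2(FPKM + 1) moved the median of all genes by 0.11 for ethanol in WT, −0.14 between genotypes on ethanol and −0.16 in the interaction, with 1591 higher and 393 lower genes, 77 and 432, and 798 and 2672.

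DESeq2 gave −1.24 for the *Serpina3* sum for ethanol in WT (adjusted p = 0.000824), −0.30 for the *Serpina1* sum on the control diet (0.0331), and 0.56 (0.0164) and 1.16 (0.00659) for the *Serpina1* and *Serpina3* sums between genotypes on ethanol, all past the threshold. All 12 libraries in 1 fit gave −1.25 (0.0259) for the *Serpina3* sum in WT, and log2(FPKM + 1) gave −0.29 (0.0441) for the *Serpina1* sum on the control diet. The *Serpina1* sum in WT was −0.86 with at least 10 counts in every library, −0.88 with the replicate block and −0.25 on quantile-normalized FPKM, and its interaction 0.86, 0.87 and 0, each past no threshold; quantile normalization gives equal ranks equal values. The *Serpina3* sum on the control diet was 0.95 with the replicate block (0.0586). Leaving out 1 library gave −1.01 to −0.73 for the *Serpina1* sum in WT, −0.10 to 0.0700 in *Ahr* HKO and 0.73 to 0.985 for its interaction. For the *Serpina3* sum it gave −1.71 to −0.98 in WT, −1.16 to −0.89 in *Ahr* HKO, 0.80 to 1.07 on the control diet, 0.91 to 1.63 on ethanol and −0.0528 to 0.67 for the interaction.

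Signs turned near 0 for *Serpina3n* and *Serpina1b* and further from 0 on quantile-normalized FPKM. *Serpina3n* for ethanol in WT was −0.0258 (upper-quartile scaling), −0.00445 (all 12 in 1 fit), −0.00615 (replicate block) and −0.0806 (quantile-normalized FPKM), and −0.32 to 0.16 with 1 library left out. *Serpina1b* on the control diet was −0.0712 (upper-quartile scaling), −0.00029 (at least 10 counts), −0.000655 (all 12 in 1 fit) and −0.00796 (replicate block), and −0.14 to 0.0832 with 1 left out. The left-out range was −0.25 to 0.0299 for *Serpina1b* in WT, −0.0200 to 0.20 in *Ahr* HKO, −0.11 to 0.0488 for *Serpina1c* on the control diet and −0.29 to 0.15 for *Serpina3n* on ethanol. On log2(FPKM + 1) and log2(FPKM + 0.1), *Serpina1b* was 0.0589 in WT, −0.0067 in *Ahr* HKO, −0.0545 between genotypes on ethanol and −0.0656 in the interaction. On quantile-normalized FPKM, *Serpina1a*, *Serpina1b*, *Serpina1c* and *Serpina1d* in WT were 0.46, 0.89, 0.72 and 0.45, of which the last 3 passed as higher (adjusted p = 0.00799, 0.0181 and 0.0202), on ethanol −0.29, −0.52, −0.0896 and −0.33, the first 3 in the interaction −0.14, −0.77 and −0.37, *Serpina1c* on the control diet 0.28 and the *Serpina3* sum in the interaction −0.92.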
